A study of Saccharomyces cerevisiae with 9 samples.

Results

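ITS 1 is the internal transcribed spacer of the yeast 35S ribosomal RNA gene that lies between the sequences of 18S and 5.8S rRNA. Its members here are the 361 single nucleotides that the deposited tables assign to ITS 1, positions 2501 to 2861, out of 6858 nucleotides of the gene, and no measured value was used to choose them. The copy tabulated is RDN37-2 on the minus strand of chromosome XII (build R64), where ITS 1 runs from 464709 to 465069, and the RefSeq entry ITS1-2 has the same coordinates. RefSeq lists a second copy, ITS1-1, at 455572 to 455932. The sources used here do not say how reads that match more than 1 copy were placed. The tables mark no feature inside ITS 1.

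RNA polymerase I (Pol I) transcribes 18S, 5.8S and 25S rRNA as 1 precursor, and ITS 1 is removed from it by endonucleases. In budding yeast the cut at site A2 inside ITS 1 can be made while the polymerase is still transcribing and parts the precursor of the small ribosomal subunit from that of the large one, and site A3 lies farther toward 5.8S. Rpa49 and Rpa34 are Pol I subunits that form a heterodimer related to the Pol II factor TFIIF, and Rpa49 is known for its part in initiation and elongation.

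The libraries were native elongating transcript sequencing (NET-seq): Pol I was immunoprecipitated with the RNA bound to it and the 3′ end of each RNA was mapped to 1 nucleotide. The comparison was between groups of 3 libraries each, from rpa49Δ yeast (gene for Rpa49 deleted), rpa34Δ yeast (gene for Rpa34 deleted) and wild-type (WT) yeast, and WT was the control of the design. All were Saccharomyces cerevisiae cultures without treatment, grown at 30 °C, and no other allele, strain background, growth phase or culture age is given in the labels. Separate cultures are not mentioned for any group, and the p-values therefore cover the spread between libraries, which may be technical.

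The sequences below are the RNA strand of RDN37-2, written 5′ to 3′, and hold the positions on which the results turn. The 50 nucleotides from 2651 to 2700 (chrXII:464870-464919) are shown because they hold the highest WT position, G at 2659, and the highest rpa49Δ position, A at 2666. Capitals mark, in order, positions 2659, 2662, 2666, 2667 and 2671.
Positions 2651 to 2700: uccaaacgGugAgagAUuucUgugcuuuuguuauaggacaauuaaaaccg
The other windows are 21 nucleotides long and put 1 position in a capital at the centre. They show 2546 (chrXII:465014-465034), the second highest in WT; 2554 (chrXII:465006-465026), the largest rise in rpa34Δ; 2581 (chrXII:464979-464999), which ends in the same letters as 2666; 2712 (chrXII:464848-464868), in a high AAC stretch; and 2782 (chrXII:464778-464798), the second largest rise in rpa49Δ.
Position 2546: uuuuggcaagAgcaugagagc
Position 2554: agagcaugagAgcuuuuacug
Position 2581: aagacaagagAuggagagucc
Position 2712: uucaauacaaCacacugugga
Position 2782: ccagagguaaCaaacacaaac

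Occupancy is given in 2 ways: reads at a position per 1000000 reads that the library had on the whole gene (RPM), and the share of the ITS 1 reads of that library. The first follows the level of ITS 1 and the second only the distribution inside it. Both are shares, so less Pol I on ITS 1 and more on the rest of the gene cannot be told apart. Libraries held 1242139 to 5353045 reads over the gene. ITS 1 held 6540, 6056 and 4420 reads in rpa49Δ, 23833, 35733 and 31704 in rpa34Δ, and 63625, 73520 and 84141 in WT. The median position of ITS 1 had 9, 9 and 6 reads in the rpa49Δ libraries, 39, 58 and 51 in rpa34Δ, and 96, 112 and 125 in WT, so rpa49Δ values of single low positions are the least precise. Replicates of a group differed by more than sampling noise in ITS 1 (chi-square per degree of freedom 1.32 to 2.99), and none was counted as a duplicate. NET-seq does not tell nascent 3′ ends from those of cleaved RNA that stays with the polymerase, and the part of such RNA was not tested.

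ITS 1 held less of the gene's occupancy in each deletion strain, and least in rpa49Δ. The rpa49Δ libraries had 4227, 3862 and 3558 RPM in ITS 1, the rpa34Δ libraries 8978, 9994 and 9415, and the WT libraries 14304, 15135 and 15718. No library of one group overlapped those of another. Per nucleotide this was 10.8 ± 0.928 RPM in rpa49Δ, 26.2 ± 1.41 in rpa34Δ and 41.7 ± 1.97 in WT (SD, n = 3 each). In the 18S sequence upstream, the density was 185 ± 3.85 RPM per nucleotide in rpa49Δ, 178 ± 1.27 in rpa34Δ and 177 ± 0.737 in WT, and in 5.8S downstream it was 215 ± 9.86 in rpa49Δ, 206 ± 6.17 in rpa34Δ and 177 ± 1.44 in WT. ITS 1 was thus below its mature neighbours in all 3 strains, and most so in rpa49Δ. The other spacers were low and fell too. ETS 1, ITS 2 and ETS 2 had means of 87.3, 52.8 and 33.5 RPM per nucleotide in WT. In rpa49Δ they had 21.1, 25.02 and 7.16. The fold of WT over rpa49Δ was 3.88 for ITS 1, 4.15 for ETS 1, 2.11 for ITS 2 and 4.68 for ETS 2. Why spacers were lower than mature sequences was not tested.

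The log2 difference of the ITS 1 level was -1.96 for rpa49Δ over WT, -0.67 for rpa34Δ over WT and -1.29 for rpa49Δ over rpa34Δ. Each of these has an exact permutation p of 0.1 (two-sided, n = 3 against 3), the smallest that this design allows, which becomes 0.1, 0.117 and 0.117 after adjustment over the 7 regions of the gene. The direction is relative to the mature sequences: with libraries scaled on the reads of the 4 spacers alone, the differences were -0.078, 0.048 and -0.13. Without position 2666 they were -2.26, -0.69 and -1.57.

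Relative to ITS 2, the spacer between 5.8S and 25S, ITS 1 was also lower in each deletion. Reads in ITS 1 per read in ITS 2 were 0.652, 0.699 and 0.659 in rpa49Δ, 0.925, 0.942 and 0.995 in rpa34Δ, and 1.29, 1.21 and 1.19 in WT. The groups did not overlap, and ITS 1 held more reads than ITS 2 in every WT library and fewer in every library of both deletions. These are read totals of spacers of unequal length (361 and 232 nucleotides), so the order of densities did not reverse. Per nucleotide the mean of ITS 1 was below that of ITS 2 in each strain. It was 41.7 against 52.8 RPM in WT, 26.2 against 42.8 in rpa34Δ and 10.8 against 25.02 in rpa49Δ. The log2 difference of this ratio was -0.88 for rpa49Δ over WT, -0.37 for rpa34Δ over WT and -0.51 for rpa49Δ over rpa34Δ (exact permutation p = 0.1 each, 0.225 after adjustment over 9 ratios and comparisons). Relative to the external spacers ETS 1 and ETS 2, rpa49Δ and rpa34Δ libraries overlapped with WT (exact permutation p from 0.2 to 0.6). Between the deletions, ITS 1 reads per ETS 2 read were 2.4, 2.96 and 2.43 in rpa49Δ and 1.815, 1.772 and 2.06 in rpa34Δ, with no overlap (exact permutation p = 0.1, 0.225 adjusted), and without position 2666 they did overlap (exact permutation p = 0.2).

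**Figure D1:**
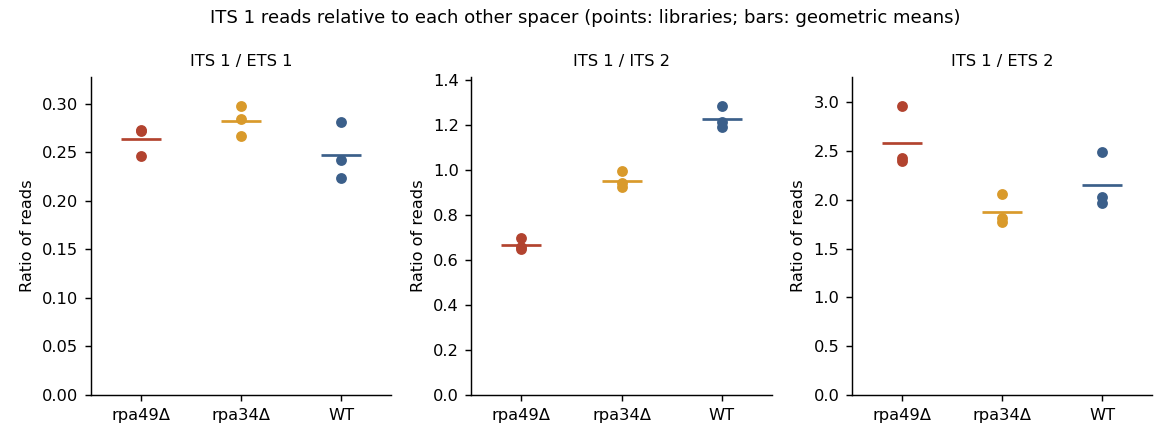
Reads in ITS 1 per read in ETS 1, ITS 2 and ETS 2 (linear axes from 0) for rpa49Δ, rpa34Δ and WT; points are libraries and bars the geometric means of 3. The groups stand apart in the ratio to ITS 2, with WT at 1.19 to 1.29 and rpa49Δ at 0.652 to 0.699.

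Along ITS 1 the fall was uneven. In bins of 50 nt counted from position 2501, the last of them 11 nt, all 8 bins fell in rpa49Δ against WT, by 1.18 at 2651 to 2700 up to 2.78 at 2551 to 2600 on the log2(RPM + 10) scale (limma, adjusted p under 0.05). Over the whole gene 61.4% of 140 bins passed this threshold, and 32.9% fell. All 8 bins also fell in rpa34Δ against WT, by 0.33 at 2801 to 2850 up to 1.09 at 2651 to 2700, where 39.3% of all bins passed and 20.7% fell. In rpa49Δ against rpa34Δ 7 of 8 bins fell, by 1.05 to 2.16, and 2651 to 2700 did not pass (log2 difference -0.10, adjusted p = 0.559), with 39.3% of all bins past the threshold and 29.3% fallen.

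With libraries scaled on spacer reads the bin directions were no longer all down. There 1 of 8 bins was higher and 3 lower in rpa49Δ against WT, 3 higher and 1 lower in rpa34Δ against WT, and 1 higher and 5 lower in rpa49Δ against rpa34Δ. In RPM, the calls at 2501 and 2801 in rpa34Δ against WT depended on single libraries: the limma adjusted p for 2501 to 2550 was 0.0864 without the rpa34Δ library of replicate 1, 0.0654 without that of replicate 3 and 0.0533 without the WT library of replicate 1. For 2801 to 2850 it lay between 0.054 and 0.137 when 1 of 5 libraries was left out (rpa34Δ replicates 1 and 3, each WT replicate).

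As a share of ITS 1 reads, the bin at 2651 to 2700 set the strains apart. It held 34.6%, 31.3% and 29.5% of ITS 1 reads in rpa49Δ, 13.8%, 14.0% and 14.0% in rpa34Δ, and 18.1%, 18.4% and 19.5% in WT. The share was thus higher in rpa49Δ and lower in rpa34Δ than in WT, with no overlap between any groups. When each region of each library was scaled to the same total, so that only the distribution inside a region remained, this bin was higher by 0.76 in rpa49Δ over WT (log2, limma adjusted p = 2.05e-05) and lower by 0.42 in rpa34Δ (log2 -0.42, limma adjusted p = 0.000223). It was higher by 1.18 in rpa49Δ over rpa34Δ (limma adjusted p = 1.346e-06).

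Other bins changed their share as well. In rpa49Δ against WT the bins at 2501, 2551 and 2801 lost share, with log2 differences of -0.60, -0.84 and -0.30 (limma, adjusted p under 0.05, which 48.6% of all bins passed on this scale, 15.7% higher and 32.9% lower). In rpa34Δ against WT the bins at 2501 and 2801 gained share, with 0.25 and 0.33, where 27.9% of all bins passed, 13.6% higher and 14.3% lower. In rpa49Δ against rpa34Δ the bins at 2501, 2551, 2801 and 2851 lost share (-0.84, -0.89, -0.63 and -0.29) and 2601 gained (0.21), where 40.0% of all bins passed, 12.1% higher and 27.9% lower. Several of these calls were lost without 1 library: 2501 in rpa34Δ against WT without rpa34Δ replicate 1 or 2 or WT replicate 2 or 3 (limma adjusted p from 0.117 to 0.168), and 2801 in rpa49Δ against WT without rpa49Δ replicate 3 or WT replicate 1 or 2 (0.06 to 0.0876). In rpa49Δ against rpa34Δ the call at 2601 was lost without any library but rpa49Δ replicate 3 (0.0505 to 0.142), and that at 2851 without any rpa34Δ library or rpa49Δ replicate 3 (0.0871 to 0.153).

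Taking position 2666 out of every library turned 2651 to 2700 in rpa49Δ over WT to -0.27 (limma adjusted p = 0.0232), left 2801 to 2850 near 0 (-0.0007), and put 2601, 2701 and 2751 above WT. The bin at 2501 to 2550 no longer passed (-0.29, limma adjusted p = 0.076). In rpa34Δ over WT, 2651 to 2700 was then at -0.65, and in rpa49Δ over rpa34Δ it stayed higher (0.38, limma adjusted p = 0.0048). The bin at 2651 to 2700 also holds 2659, which made up 33.4% of its reads in WT and was lower in both deletions. Bins were not taken without 2659, so these values do not show how the rest of that bin moved.

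**Figure D2:**
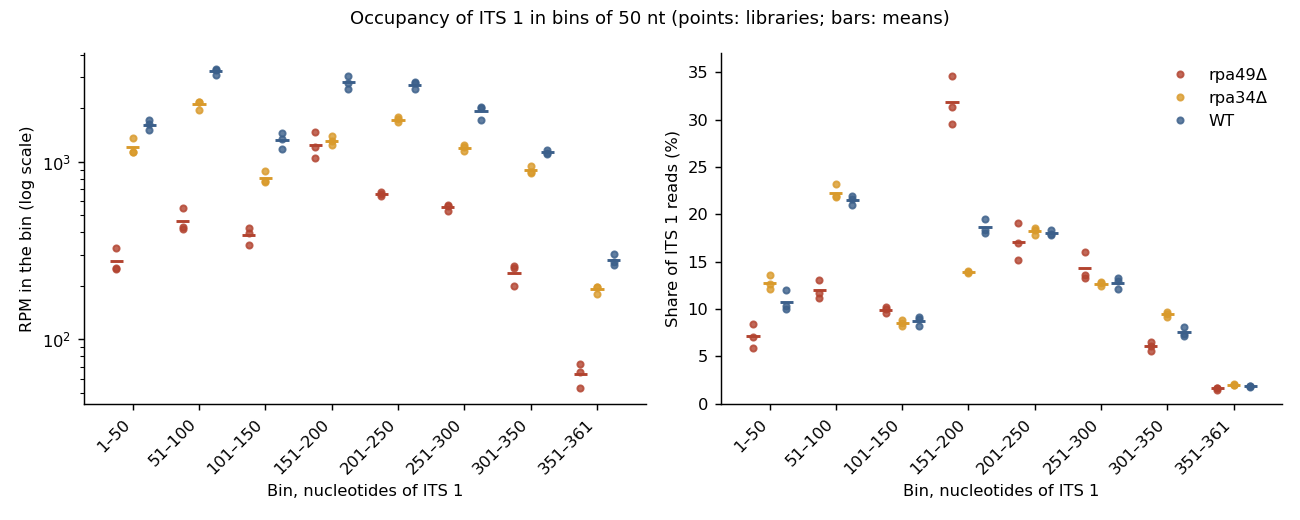
Occupancy of ITS 1 in bins of 50 nt numbered from its first nucleotide, as RPM (left, log axis) and as a share of ITS 1 reads (right, linear axis from 0); points are libraries and bars the mean of 3. Bin 151–200, gene positions 2651 to 2700, holds 29.5% to 34.6% of ITS 1 reads in rpa49Δ and 18.1% to 19.5% in WT.

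Position 2666, an A at nucleotide 166 of ITS 1 (chromosome XII, 464904), was the most occupied position of ITS 1 in rpa49Δ. It had 948, 809 and 627 RPM in rpa49Δ, 275, 314 and 331 in rpa34Δ, and 258, 198 and 252 in WT. All rpa49Δ libraries lay above all others. Most of ITS 1 fell in rpa49Δ, whereas this position rose 3.37-fold over WT and 2.59-fold over rpa34Δ in RPM, with log2(RPM + 10) differences of 1.70 (SE 0.14, limma adjusted p = 4.461e-09) and 1.33 (SE 0.13, limma adjusted p = 1.502e-06). In rpa34Δ it was 1.3-fold higher than in WT (log2 difference 0.37, SE 0.10, limma adjusted p = 0.012), all 3 libraries above the highest WT library.

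Of all ITS 1 reads, 22.4%, 20.95% and 17.6% ended at 2666 in rpa49Δ, 3.07%, 3.14% and 3.52% in rpa34Δ, and 1.80%, 1.31% and 1.604% in WT. The exact 95% binomial intervals ran from 16.5% to 23.45% over the rpa49Δ libraries, 2.85% to 3.73% over rpa34Δ and 1.225% to 1.91% over WT, and cover counting error only. The order rpa49Δ, rpa34Δ, WT held in every library. On the share scale the difference was 3.61 (log2, SE 0.13) for rpa49Δ over WT, 2.59 (SE 0.11) for rpa49Δ over rpa34Δ and 1.02 (SE 0.10) for rpa34Δ over WT, with limma adjusted p of 4.983e-11, 1.333e-09 and 2.101e-06. The position ranked 1 in rpa49Δ, 1 in rpa34Δ and 7 in WT.

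In RPM, the positions next to 2666 were far below it in each strain. The positions on either side, chosen after their values were seen, had 7.76, 17.9 and 8.05 RPM (2665) and 80.2, 40.2 and 23.4 RPM (2667) in rpa49Δ, against 63.2, 60.7 and 74.7 RPM (2665) and 42.9, 29.0 and 43.7 RPM (2667) in WT. In rpa34Δ, 2665 had 18.5, 22.4 and 20.8 RPM and 2667 had 20.3, 16.8 and 23.2 RPM. At 2665 the rpa49Δ libraries lay below all WT libraries, and at 2667 they overlapped.

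In share, 2667 and 2671, downstream of 2666, were higher in rpa49Δ as well. The U at 2667 held 1.9%, 1.04% and 0.656% of ITS 1 reads in rpa49Δ, 0.227%, 0.168% and 0.246% in rpa34Δ, and 0.3002%, 0.192% and 0.278% in WT, and ranked 8 in rpa49Δ. Its share-scale log2 difference was 1.75 for rpa49Δ over WT (4.66-fold, limma adjusted p = 7.482e-05) and 1.79 over rpa34Δ (limma adjusted p = 0.000142). In RPM it did not pass for rpa49Δ over WT (0.15, limma adjusted p = 0.629) and passed over rpa34Δ (0.83, SE 0.26, limma adjusted p = 0.0237). That RPM call was lost without rpa34Δ replicate 1 or 2 or rpa49Δ replicate 1 or 2 (limma adjusted p from 0.0568 to 0.09), and without rpa49Δ replicate 1 the difference was 0.448.

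At 5 nucleotides downstream of 2666, the U at 2671 ranked 4 in rpa49Δ. It held 2.02%, 1.30% and 1.49% of ITS 1 reads in rpa49Δ, 0.512%, 0.479% and 0.442% in rpa34Δ, and 0.358%, 0.373% and 0.347% in WT, a share-scale log2 difference of 1.86 for rpa49Δ over WT (limma adjusted p = 1.329e-07) and 1.47 over rpa34Δ (limma adjusted p = 8.072e-06). In RPM it did not pass in rpa49Δ over WT (0.16, limma adjusted p = 0.423) or over rpa34Δ (0.37, limma adjusted p = 0.104).

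**Figure D3:**
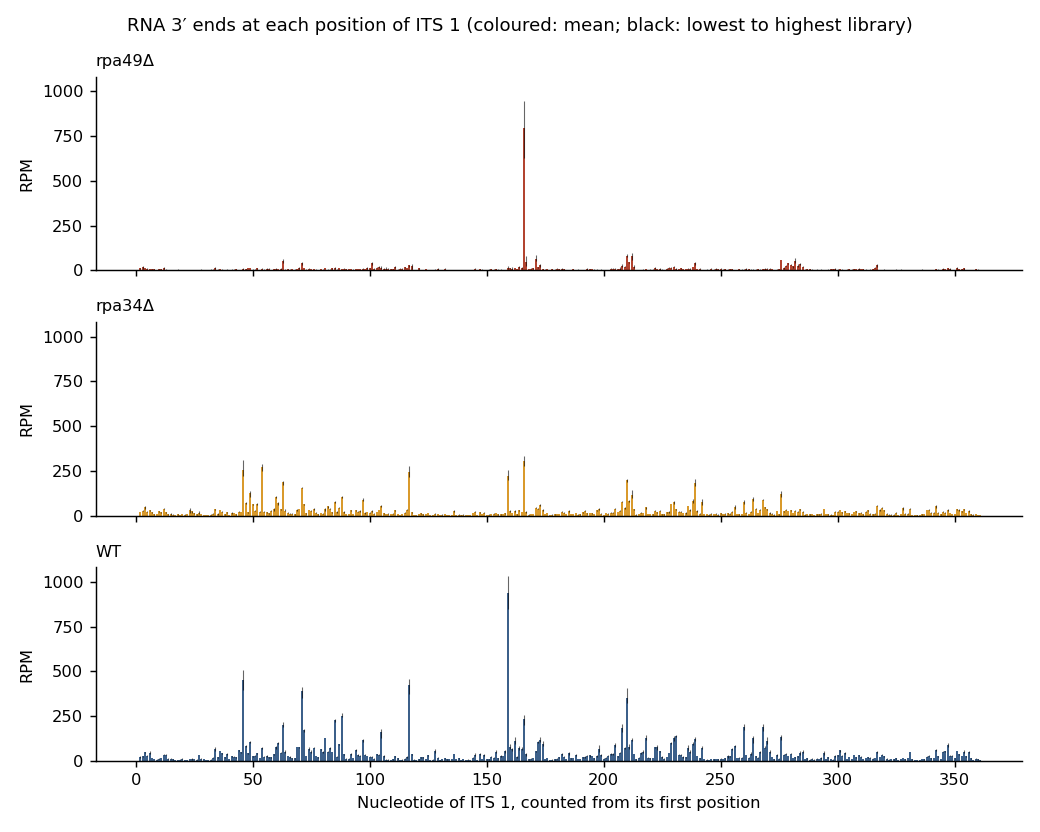
RNA 3′ ends in RPM (linear axes from 0, same range) at each of the 361 nucleotides of ITS 1 in rpa49Δ, rpa34Δ and WT; coloured bars are means of 3 libraries and black lines run from the lowest to the highest library. In rpa49Δ nucleotide 166 (position 2666) reaches 627 to 948 RPM over a low profile, and in WT nucleotide 159 (position 2659) reaches 849 to 1031 RPM.

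At 7 nucleotides upstream, position 2659 moved the other way. This G, the most occupied position of ITS 1 in WT, had 6.46, 12.8 and 22.5 RPM in rpa49Δ (10, 20 and 28 reads), 201, 256 and 211 in rpa34Δ, and 849, 936 and 1031 in WT. The 3 groups did not overlap. It was 67.4-fold lower in rpa49Δ than in WT, 4.22-fold lower in rpa34Δ than in WT and 16.0-fold lower in rpa49Δ than in rpa34Δ, with log2(RPM + 10) differences of -5.36 (SE 0.17), -2.03 (SE 0.10) and -3.33 (SE 0.20) and limma adjusted p of 8.88e-15, 4.409e-09 and 5.968e-09. As a share of ITS 1 reads it held 0.153%, 0.33% and 0.634% in rpa49Δ, 2.24%, 2.56% and 2.24% in rpa34Δ, and 5.94%, 6.18% and 6.56% in WT. Its fall was thus also larger than that of ITS 1 as a whole, with share-scale log2 differences of -3.86 for rpa49Δ and -1.38 for rpa34Δ against WT (limma adjusted p = 2.242e-08 and 9.228e-09).

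Position 2546, an A that ranked second in WT, was nearly emptied in rpa49Δ. It had 5.17, 8.29 and 12.1 RPM in rpa49Δ, 222, 310 and 235 in rpa34Δ, and 505, 394 and 457 in WT. It was 53.1-fold lower in rpa49Δ than in WT (log2(RPM + 10) difference -4.65, SE 0.15, limma adjusted p = 7.59e-15) and 1.77-fold lower in rpa34Δ (-0.81, SE 0.12, limma adjusted p = 0.00014). In rpa34Δ its share of ITS 1 reads did not pass the threshold against WT (log2 difference -0.16, SE 0.11, limma adjusted p = 0.282). In rpa49Δ its share fell by 3.28 on the log2 scale (limma adjusted p = 7.435e-09).

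Of the other strong WT positions, some were nearly emptied in rpa49Δ and some kept a high rank. Positions 2571, 2710 and 2563, ranked 4, 5 and 9 in WT, ranked 10, 2 and 7 in rpa49Δ. In RPM they were 9.18-fold, 4.33-fold and 3.94-fold lower in rpa49Δ than in WT. Position 2588 (G) had 9.7, 7.02 and 8.05 RPM in rpa49Δ, 97.2, 108 and 106 in rpa34Δ, and 246, 244 and 266 in WT, 30.5-fold lower in rpa49Δ than in WT. Position 2760 (A) had 4.53, 5.74 and 3.22 RPM in rpa49Δ, 76.5, 88.4 and 65.3 in rpa34Δ, and 173, 208 and 189 in WT, 42.2-fold lower in rpa49Δ than in WT. Both fell in each comparison, in the order rpa49Δ, rpa34Δ, WT without overlap (limma, adjusted p under 0.05). Position 2617 (G), ranked 3 in WT and 17 in rpa49Δ, was lower in rpa49Δ but less emptied. It had 20.04, 33.2 and 30.6 RPM in rpa49Δ, 217, 275 and 236 in rpa34Δ, and 371, 447 and 458 in WT. Its share fell in rpa49Δ (log2 -1.84 against WT) and did not pass the threshold in rpa34Δ (log2 -0.14, limma adjusted p = 0.212), as at 2546.

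The largest rise in rpa34Δ was at position 2554, an A at 8 nucleotides downstream of 2546. It had 12.3, 7.65 and 7.25 RPM in rpa49Δ, 250, 291 and 279 in rpa34Δ, and 74.9, 70.4 and 68.0 in WT. The direction was opposite in the deletions: 3.85-fold higher in rpa34Δ than in WT (log2(RPM + 10) difference 1.80, SE 0.088, limma adjusted p = 3.412e-09) and 7.85-fold lower in rpa49Δ than in WT (-2.10, SE 0.15, limma adjusted p = 4.666e-10). Compared directly, rpa49Δ was 30.2-fold lower than rpa34Δ (-3.90, SE 0.14, limma adjusted p = 2.124e-11). Its share of ITS 1 reads averaged 0.231% ± 0.0518 in rpa49Δ, 2.89% ± 0.0944 in rpa34Δ and 0.474% ± 0.046 in WT (SD, n = 3 each), and it ranked 99, 2 and 50 among the 361 positions.

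Other rises in rpa34Δ were smaller in size. Position 2550 had 61.4, 66.0 and 62.1 RPM in rpa34Δ and 24.7, 25.9 and 23.2 in WT (2.57-fold), and position 2828 had 43.7, 46.7 and 33.6 RPM in rpa34Δ and 16.2, 17.7 and 17.0 in WT (2.44-fold). Position 2739 had 176, 207 and 163 RPM in rpa34Δ and 122, 110 and 136 in WT (1.48-fold). All 3 passed the threshold (log2 differences 1.08, 0.92 and 0.53, limma), as did 2523 and 2524 (2.86-fold and 2.22-fold), which had lower levels, of 29.2 and 23.9 RPM in rpa34Δ. The falls in rpa34Δ that were largest after 2659 were at 2662, 2731, 2581 and 2723, with log2 differences of -1.83, -1.73, -1.64 and -1.61 in that order. Their means in RPM were 24.3, 35.3, 34.5 and 18.5 in rpa34Δ and 112, 140, 128 and 77.3 in WT.

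In RPM, the positions that rose in rpa49Δ besides 2666 formed a small group. Position 2782, a C, had 42.7, 50.4 and 69.2 RPM in rpa49Δ, 30.9, 24.1 and 27.6 in rpa34Δ, and 19.6, 20.2 and 17.6 in WT. The groups did not overlap, and it was 2.83-fold higher in rpa49Δ than in WT (log2 difference 1.12, SE 0.16, limma adjusted p = 7.208e-06) and 1.44-fold higher in rpa34Δ than in WT (0.36, SE 0.11, limma adjusted p = 0.0188). Positions 2601, 2779 and 2781 rose by 0.55, 0.45 and 0.42 in rpa49Δ over WT. The last of these lost its call when any of 4 libraries was left out (rpa49Δ replicates 1 and 3, WT replicates 1 and 3; adjusted p from 0.0905 to 0.113), and also with a pseudocount of 1 RPM (0.0643), the replicate number as a block (0.0643) or scaling on mature rRNA reads (0.077). The call at 2779 was lost without WT replicate 2 (adjusted p = 0.0599). On the share scale every position from 2778 to 2785 was higher in rpa49Δ (limma, adjusted p under 0.05). The log2 differences were 0.52 to 2.67 over WT and 0.75 to 1.79 over rpa34Δ, where 20.5% and 9.60% of positions over the gene were higher. In RPM 2778 and 2785 fell against WT, and 2780, 2783 and 2784 did not pass. This run was picked after its values were seen.

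The AAC stretch at 2710 to 2712 lies in the part of ITS 1 where site A2 is usually placed. Its last 2 nucleotides held a larger part of ITS 1 reads in both deletions than in WT. The C at 2712 had 61.4, 85.45 and 95.0 RPM in rpa49Δ, 115, 95.9 and 142 in rpa34Δ, and 114, 125 and 109 in WT. It fell in rpa49Δ (1.44-fold lower than in WT, log2 difference -0.49, limma adjusted p = 0.0065) and did not pass the threshold in rpa34Δ against WT (log2 0.0063, SE 0.12, limma adjusted p = 0.971). Its share of ITS 1 reads was 1.45%, 2.21% and 2.67% in rpa49Δ, 1.28%, 0.96% and 1.51% in rpa34Δ, and 0.798%, 0.823% and 0.692% in WT, higher in both deletions than in WT (share-scale log2 differences 1.30 and 0.62, limma adjusted p = 2.318e-05 and 0.00129). The A at 2711 gained share as well, with 1.05 and 0.70. In rpa49Δ against rpa34Δ the share of 2712 was higher (log2 0.67, limma adjusted p = 0.01865). That of 2711 did not pass (log2 0.36, limma adjusted p = 0.0581). The A at 2710 held 2.12% ± 0.387 of ITS 1 reads in rpa49Δ, 2.08% ± 0.114 in rpa34Δ and 2.35% ± 0.324 in WT (SD, n = 3 each) and passed the share threshold in no comparison (limma adjusted p = 0.383 in rpa49Δ against WT, 0.187 in rpa34Δ against WT and 0.946 in rpa49Δ against rpa34Δ). Whether these 3′ ends come from a cut was not tested.

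**Figure D4:**
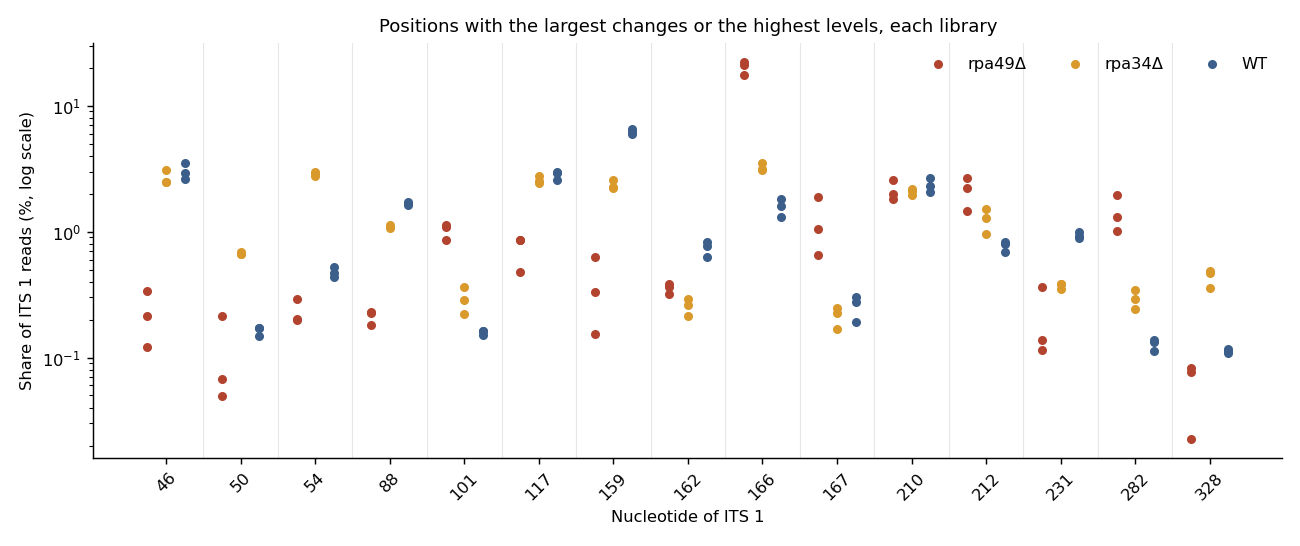
Share of ITS 1 reads (%, log axis) in each library at 15 nucleotides of ITS 1 with the largest changes or the highest levels, for rpa49Δ, rpa34Δ and WT. Nucleotide 166 (position 2666) stands at 17.6% to 22.4% in rpa49Δ, nucleotide 159 (2659) is lowest in rpa49Δ and highest in WT, and nucleotide 54 (2554) is highest in rpa34Δ.

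Of the positions that averaged 10 RPM or more in the compared libraries, 5 rose and 215 fell in rpa49Δ against WT of 238 tested in ITS 1, where over the whole gene 57.6% of 6320 positions passed, 27.1% rose and 30.5% fell. In rpa34Δ against WT 20 rose and 170 fell of 272 tested, against 43.2% of 6425 positions past the threshold, 19.8% risen and 23.4% fallen. In rpa49Δ against rpa34Δ 4 rose and 159 fell of 196 tested, against 30.4% of 6083, 10.9% and 19.5% (limma, adjusted p under 0.05). Of the positions that passed this filter on low values, 157, 39 and 115 did so through the higher level of WT, WT and rpa34Δ in these 3 comparisons, so they had to be lower in the other group. Without the filter, 8 rose and 308 fell, 23 rose and 200 fell, and 5 rose and 235 fell of 360 positions with a read, in the same order. With libraries scaled on spacer reads 44 rose and 107 fell, 76 rose and 56 fell, and 28 rose and 88 fell. Shares over the whole gene were not taken without the filter or on the spacer scale. These counts show only how the split inside ITS 1 depends on the setting.

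The counts of positions whose libraries did not overlap need no filter. Of all 361 positions, 308 were lower and 6 higher in every rpa49Δ library than in every WT library, where 35.7% and 27.4% were over the whole gene. In rpa34Δ against WT 220 were lower and 30 higher (28.4% and 24.3% over the gene), and in rpa49Δ against rpa34Δ 249 were lower and 6 higher (28.8% and 16.1%).

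Of the tested positions of ITS 1, 90.3%, 62.5% and 81.1% fell in rpa49Δ against WT, rpa34Δ against WT and rpa49Δ against rpa34Δ, and of those of the other 3 spacers 90.7%, 66.3% and 79.6% did. Median differences over all positions with a read were taken on the log2(RPM + 10) scale. This scale understates changes of low positions, so the medians are not fold changes of a typical position. In ITS 1 (360 positions) they were -0.98 for rpa49Δ over WT, -0.33 for rpa34Δ over WT and -0.56 for rpa49Δ over rpa34Δ. In the other spacers the medians were -1.11, -0.39 and -0.54, and over the whole gene -0.034, 0.003 and -0.033. Spacers other than ITS 1 thus had negative medians too, and the difference between ITS 1 and the other spacers was not tested. The comparisons with WT share the WT libraries.

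Inside ITS 1, on the share scale, 43 positions rose and 86 fell in rpa49Δ against WT, where 48.4% of all positions tested over the gene passed, 20.5% higher and 27.9% lower. In rpa34Δ against WT 71 rose and 59 fell (41.0% over the gene, 19.0% higher and 22.0% lower), and in rpa49Δ against rpa34Δ 28 rose and 72 fell (26.2% over the gene, 9.60% higher and 16.6% lower). As 2666 took a large share in rpa49Δ, the split was also taken without it. It was then 56 risen and 70 fallen in rpa49Δ against WT, and 41 risen and 57 fallen against rpa34Δ. The filter on low values bears on these splits too. Without it 74 rose and 96 fell in rpa49Δ against WT, and 95 rose and 63 fell in rpa34Δ against WT. In rpa49Δ against rpa34Δ 48 rose and 83 fell, of 360 positions each. Shares over the whole gene were not taken without the filter or without 2666. In ITS 1 54.2%, 47.8% and 51.0% of tested positions passed on this scale in rpa49Δ against WT, rpa34Δ against WT and rpa49Δ against rpa34Δ, and in the other spacers 72.0%, 68.3% and 64.4% did.

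Over all positions of ITS 1, reads were concentrated on fewer positions in rpa49Δ and spread over more in rpa34Δ than in WT, and single positions weighed on both. The 10 highest positions of each strain held 33.9% of ITS 1 reads in rpa49Δ, 22.7% in rpa34Δ and 24.3% in WT, and 4 positions were in all 3 lists (2563, 2571, 2666 and 2710). Of 10 positions, rpa34Δ shared 7 with WT and rpa49Δ shared 4 with WT. The effective number of positions, which is the number of equally used positions that would give the same chance of drawing the same position from 2 reads, was 18.4, 20.9 and 27.7 in rpa49Δ, 120.5, 112 and 113 in rpa34Δ, and 91.7, 90.3 and 87.5 in WT (exact permutation p = 0.1 for each comparison, 0.12 adjusted over 6). Position 2666 set the low value in rpa49Δ: without it the effective number was 144.5 ± 10.9 in rpa49Δ, 123 ± 4.68 in rpa34Δ and 89.0 ± 2.23 in WT (SD, n = 3 each), and the direction of rpa49Δ against both other strains turned. Position 2659 held 5.94% to 6.56% of ITS 1 reads in WT and 2.24% to 2.56% in rpa34Δ, which lowers the WT number more. The effective number was not taken without 2659, so whether rpa34Δ and WT differ apart from that position was not tested.

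The centre of occupancy lay farther toward 5.8S in rpa49Δ. It was at nucleotide 179 ± 2.23 of ITS 1 in rpa49Δ, 167 ± 1.24 in rpa34Δ and 168 ± 0.979 in WT (SD, n = 3 each). The rpa49Δ libraries lay apart from both other groups (exact permutation p = 0.1, 0.12 adjusted), and without 2666 the distance from WT was 14.5 nt in place of 11.2. The rpa34Δ centre overlapped with WT (exact permutation p = 0.7). As a description over 361 positions, the median correlation of log2 share profiles was 0.785 within rpa49Δ, 0.971 within rpa34Δ and 0.984 within WT, and 0.52 between rpa49Δ and WT and 0.871 between rpa34Δ and WT. These profiles share the sequence, and the rpa49Δ libraries were the shallowest, whose part in the lower values was not tested.

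By the base at the RNA 3′ end, G took a smaller share in both deletions. Of ITS 1 positions 30.5% are A, 15.8% C, 20.2% G and 33.5% U. Reads ending in G made up 13.2% ± 1.01 in rpa49Δ, 20.8% ± 0.223 in rpa34Δ and 27.2% ± 0.55 in WT (SD, n = 3 each), with no overlap between groups (exact permutation p = 0.1, 0.12 adjusted over 12 tests). Reads ending in GG made up 4.49% ± 0.731 in rpa49Δ, 9.43% ± 0.256 in rpa34Δ and 14.2% ± 0.531 in WT, and 2659 is such a position. Position 2659 carried part of both differences: without it, G made up 12.9% ± 0.859 in rpa49Δ, 18.9% ± 0.235 in rpa34Δ and 22.4% ± 0.39 in WT, still with no overlap (exact permutation p = 0.1), so that the difference from WT was -9.49 points in place of -14.0 for rpa49Δ and -3.46 in place of -6.39 for rpa34Δ. GG then made up 4.13% ± 0.522 in rpa49Δ, 7.25% ± 0.238 in rpa34Δ and 8.52% ± 0.458 in WT.

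A was the most frequent end in all 3 strains, with 47.9% ± 0.395 in rpa49Δ, 43.1% ± 0.143 in rpa34Δ and 40.7% ± 0.581 in WT. Without 2659, A in rpa34Δ (44.1% ± 0.23) overlapped with WT (43.4% ± 0.503). Without 2666, A in rpa49Δ was 34.5% ± 1.58 and lay below WT at 39.7% ± 0.485, U was 31.5% ± 3.69 against 21.1% ± 0.526 in WT, and G, at 16.6% ± 0.984, stayed below WT at 27.6% ± 0.509.

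Positions with the same last letters as 2666 did not all move with it. Reads ending in AGA, as at 2666, made up 25.5% ± 2.11 of ITS 1 reads in rpa49Δ, 14.0% ± 0.344 in rpa34Δ and 11.8% ± 0.757 in WT over 12 positions. With 2666 left out of both the positions and the reads, the other 11 positions are 3.06% of ITS 1. Of the reads that remain they held 6.48% ± 0.242 in rpa49Δ, 11.1% ± 0.248 in rpa34Δ and 10.4% ± 0.556 in WT (SD, n = 3 each). Position 2581 shares the letters agagAu with 2666, as the printed windows show, and fell 8.47-fold in rpa49Δ against WT (limma adjusted p = 8.419e-12) and 3.69-fold in rpa34Δ against WT (limma adjusted p = 1.262e-07). A match of letters is a description of these windows.

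**Figure D5:**
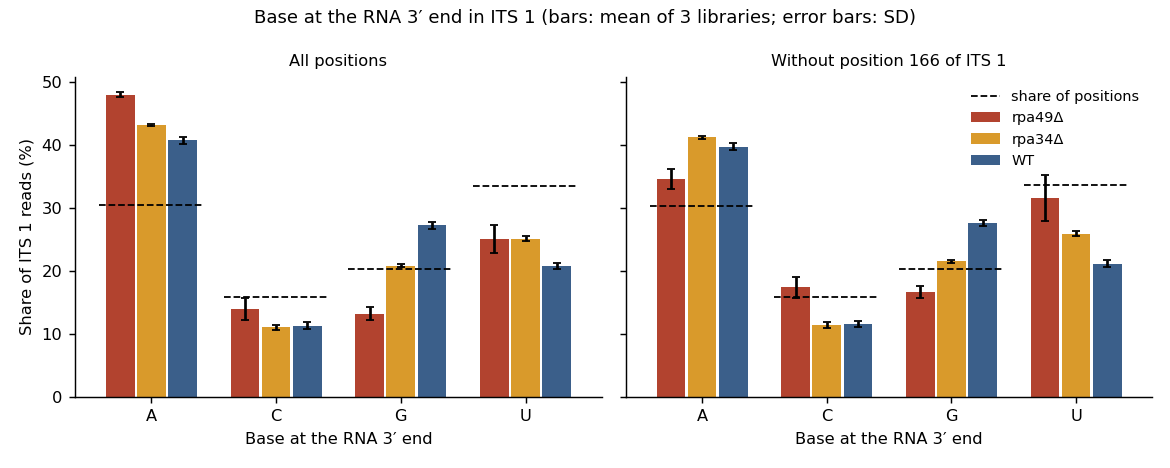
Share of ITS 1 reads (%, linear axes from 0) by the base at the RNA 3′ end in rpa49Δ, rpa34Δ and WT, over all positions (left) and without nucleotide 166 (right); bars are means of 3 libraries, error bars SD, and dashed lines the share of positions with that base. G stands at 13.2% in rpa49Δ and 27.2% in WT on the left, and without nucleotide 166 A is lower in rpa49Δ (34.5%) than in WT (39.7%).

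At the borders of ITS 1 values were far below those of the highest positions, but in rpa49Δ they were not low throughout. There 2502 and 2503 averaged 11.45 and 17.8 RPM, against 10.8 RPM per nucleotide over ITS 1. Position 2503 was the highest of the bin at 2501 to 2550 in that strain. Position 2501, next to 18S, was listed at 0 in all 9 libraries, and no source used here says why. Position 2502 had 8.4, 14.7 and 11.3 RPM in rpa49Δ, 19.6, 22.1 and 21.7 in rpa34Δ, and 18.4, 16.9 and 24.7 in WT, and position 2503 had 10.99, 25.5 and 16.9 RPM in rpa49Δ, 29.8, 26.6 and 24.4 in rpa34Δ, and 26.1, 24.5 and 22.4 in WT. At 2502 the rpa49Δ libraries lay below all others, and at 2503 they overlapped with WT. In rpa34Δ neither position passed against WT in RPM (log2 0.061 and 0.10, limma adjusted p = 0.709 and 0.476), while both gained share of ITS 1 (0.52 and 0.59). In rpa49Δ 2502 fell in RPM against WT (log2 -0.49, limma adjusted p = 0.0146) and 2503 did not pass (-0.34, limma adjusted p = 0.105), and both gained share of ITS 1 against WT (0.74 and 1.03, limma adjusted p = 0.00487 and 0.00151). At the 5.8S side, 2859, 2860 and 2861 averaged 5.68, 3.48 and 1.5 RPM in rpa49Δ, 7.02, 5.64 and 3.06 in rpa34Δ, and 11.8, 7.55 and 2.97 in WT, of which the last is under 5 RPM in every library.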

How the data were processed

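NET-seq of Pol I was analysed in 9 libraries, 3 each of rpa49Δ, rpa34Δ and WT, grouped by the titles. Per the labels' protocols, a linker with a unique molecular identifier was ligated to RNA 3′ ends of the Pol I immunoprecipitate. The submitters' processing notes name build R64 and the tools STAR 2.7.1a, cutadapt 3.4, bedtools 2.28.0, SAMtools 1.6, bcl2fastq 2.20.00 and R 4.0.2. Whether identifiers were collapsed is not stated in them. The authors deposited 2 tables of RPM per nucleotide, with the same WT columns in both. Their deposited ratio and p-value columns were not used. Values were whole multiples of 1 read per library (tolerance 0.01 read, at least 99.956% whole; all values of ITS 1), so reads were recovered. Sequences were read from the bases in the tables, and RefSeq gave names.

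RPM values sum to 1000000 over the gene in each library. Positions averaging 10 RPM or more in the compared libraries, and bins of 50 nt restarting at each region, were put on the log2(RPM + 10) scale and compared by limma 3.58.1 in R 4.3.3 (lmFit, then eBayes with trend), adjusted by Benjamini-Hochberg over the whole gene at 0.05; this scale understates changes of low positions, and folds are ratios of mean RPM or shares. Measures with 1 value per library had two-sided exact permutation tests. Only the limma fit of positions was tried on simulated counts, drawn from WT means and WT spread, and the other steps were not simulated. Alternatives were edgeR 4.0.16 on recovered reads, other scalings, filters, pseudocounts and bins, and leaving out each library. With edgeR 218, 189 and 163 ITS 1 positions were called (rpa49Δ against WT, rpa34Δ against WT, rpa49Δ against rpa34Δ). Shares over the whole gene were taken for the main fits only. Permutation tests ran in scipy 1.17.1 (Python 3.11.15, pandas 2.3.3, numpy 2.4.6) and plots in matplotlib 3.10.9.

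Named positions are the 10 highest of each strain, the 5 largest rises and falls past the threshold per comparison and scale, and the 3 at each end. The members and lists were chosen with earlier results of these data known.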

Additional observations from a re-analysis of the deposited data

How the results depend on the processing

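Comparisons are given as rpa49Δ against WT, rpa34Δ against WT, and rpa49Δ against rpa34Δ. Counts of called positions and bins in this section are of ITS 1 alone. Shares over the whole gene were not taken for these settings. Requiring a mean of 50 RPM left 35, 45 and 17 called positions, and 31, 40 and 14 on the share scale, as fewer positions were tested. Bins of 25 nt gave 15, 13 and 14 calls, and 9, 9 and 10 on the share scale, as there are more bins. Scaled on spacer reads, 4 bins were called in rpa49Δ against WT and 4 in rpa34Δ against WT, and the level differences were -0.0783, 0.0477 and -0.126. On that scale the bins at 2601, 2651 and 2751 turned in rpa49Δ against WT (0.0989, 0.687 and 0.0793) and against rpa34Δ (0.088, 1.06 and 0.0448), and those at 2501, 2551, 2601, 2701, 2751, 2801 and 2851 in rpa34Δ against WT (0.297, 0.0965, 0.0105, 0.0629, 0.0345, 0.377 and 0.169).

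Without position 2666 the level differences of rpa49Δ were -2.26 against WT and -1.57 against rpa34Δ. Relative to ETS 1 they were -0.215 and -0.381, relative to ITS 2 -1.18 and -0.791, and relative to ETS 2 -0.0388 and 0.181. The centre moved by 14.5 and 14.7 nt. The effective number of positions differed by 55.5 against WT and 21.6 against rpa34Δ, and by 33.8 in rpa34Δ against WT. Shares by end base differed in rpa49Δ against WT by -5.20 points for A, 5.90 for C, -11.1 for G and 10.4 for U, against rpa34Δ by -6.62, 6.02, -4.95 and 5.55, and in rpa34Δ against WT by 1.42 for A and 4.82 for U. The share-scale bins at 2651 and 2701 turned in rpa49Δ against WT (-0.268 and 0.219). This leave-out was added for bins and positions after the data were seen. Without 2659, the highest WT position, also added after the data were seen, shares by end base differed in rpa49Δ against WT by 4.66 points for A and -9.49 for G, in rpa34Δ against WT by 0.717 for A, -3.46 for G and 3.53 for U, and in rpa49Δ against rpa34Δ by 3.95 for A and -6.03 for G. Without the first 10 and last 10 positions, rpa49Δ against rpa34Δ differed by -87.2 in the effective number and by 5.26 points for A.

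The replicate numbers do not pair the libraries: correlations of same-numbered deviations ran from -0.285 to 0.253. Between differently numbered libraries they ran from -0.306 to 0.422, both ends being pairs of rpa34Δ and WT. Whether the libraries share a grouping other than these numbers was not tested. With the replicate number as a block, 217, 182 and 166 positions were called, 129, 125 and 100 on the share scale, 8, 7 and 7 bins, and 4, 2 and 4 share-scale bins. Leaving out 1 library gave 215 to 221, 163 to 187 and 150 to 160 called positions, and level differences of -2.02 to -1.90, -0.71 to -0.63 and -1.35 to -1.23. Of the positions with the largest rises and falls, none changed direction under any alternative run. In 901 of these refits the call held and in 12 it was lost, all at 2667, 2779 and 2781. These positions were picked as past the threshold in the same libraries, and the refits share data. That most calls held was thus favoured by the choice. For single bins 520 held, 36 lost and 5 gained a call, and 15 turned, as listed. The cause of the other changes was not tested. Depth limits rpa49Δ, whose median ITS 1 position had 6 to 9 reads per library.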
